A study of Mus musculus with 24 samples.

Results

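A set of 36 genes of the ATF4 response and of serine and amino acid supply was followed in cultured fibroblasts of mouse embryos (MEFs) that were being turned towards heart muscle. The genes were chosen by symbol for their known part in this response, with earlier results of these data in view, and all 36 were among the 47967 genes of the count table. All 36 also had enough counts to be among the 17576 genes tested. The MEFs came from C57BL/6 embryos of embryonic day 13.5 to 14.5 and were transduced with retroviruses carrying a factor cocktail. The cocktail names are made of initials: GMT is usually Gata4, Mef2c and Tbx5, GHMT adds the heart transcription factor Hand2, and AGHMT further adds the kinase Akt1. RNA was sequenced 7 or 2 days after transduction from AGHMT, GHMT, GMT and mock-treated cells, with 3 libraries in each of the 8 groups. All groups share the strain and the cell source, and cocktail cells are a mixture of transduced and untransduced fibroblasts.

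ATF4 is a transcription factor whose messenger RNA is translated when the initiation factor eIF2α is phosphorylated, as happens when amino acids run short or the endoplasmic reticulum is stressed. With C/EBP partners it binds a composite response element and switches on genes that import amino acids, make serine, glycine, asparagine and proline, and charge transfer RNAs, along with regulators that limit growth or promote cell death. In proliferating fibroblasts the same genes feed protein and nucleotide synthesis. ATF4 activity is set largely by translation, so the level of its messenger RNA, which is what was counted here, is not its activity.

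Counted reads per library ranged from about 29346000 to 37495000, and levels are given in CPM, counts scaled to library size with TMM factors. Gata4, Mef2c and Tbx5 averaged 633 to 3409 CPM in the cocktail groups and no more than 33.1 CPM in mock. Hand2 averaged 978 to 1166 CPM where the cocktail holds it and 3.23 to 7.58 CPM elsewhere. Akt1 is abundant in all MEFs, at 451 ± 7.20 CPM in AGHMT against 385 ± 22.5 CPM in mock at day 7 (SD, n = 3 each), so it checks the AGHMT label weakly. All 10 cardiac muscle markers were detected under AGHMT at day 7, with a summed level of 20111 to 21109.9 CPM, against 21.3 to 24.6 CPM in mock. Their sum was 15046 to 16068.5 CPM in GHMT and 9015 to 9524 CPM in GMT at day 7. At day 2 it was 10640 to 12805 CPM in AGHMT, 9527 to 9627 CPM in GHMT and 3997 to 4114 CPM in GMT. Mock at day 2 had 12.5 to 13.5 CPM. The 11 fibroblast markers summed to 19161 to 20090.3 CPM in AGHMT, 17696 to 19147 CPM in GHMT and 13170.3 to 14108 CPM in GMT at day 7, against 73310.4 to 79503 CPM in mock, and to 23683 to 27369.8 CPM, 29939 to 32520.4 CPM and 28042 to 28868 CPM at day 2, against 45397 to 49324 CPM in mock. The 13 macrophage markers summed to 42.8 to 61.6 CPM in AGHMT, 61.3 to 64.7 CPM in GHMT and 55.9 to 69.0 CPM in GMT at day 7, against 388 to 562 CPM in mock, where 11 of them reached 5 CPM. At day 2 these 13 markers stayed at or under 56.2 CPM in sum in every group, mock included. The 6 neural markers summed to 251 to 253 CPM in AGHMT, 218 to 229 CPM in GHMT and 109 to 129 CPM in GMT at day 7, against 103 to 108 CPM in mock, and to 83.8 to 106 CPM in AGHMT at day 2, against 73.4 to 77.5 CPM in mock. At day 7 only 1 of these 6 reached 5 CPM in AGHMT, and 2 did in each of GHMT, GMT and mock. The 7 endothelial and the 5 epithelial markers reached at most 13.8 and 97.4 CPM in sum in any library, and of all these markers Tie1 in GMT at day 7 and Snap25 in GHMT at day 2 were at 0 in a whole group. The epithelial sum averaged 15.9, 49.6, 95.3 and 22.4 CPM in AGHMT, GHMT, GMT and mock at day 7. At day 2 it averaged 4.85, 23.4, 53.0 and 22.2 CPM in the same order. These marker levels moved with the comparisons below, and their part in the results was not tested. In bulk RNA, fewer cells of a type and less RNA per cell cannot be told apart.

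Other limits of the design hold for all comparisons with mock. The labels describe for infected cells an induction medium with added essential and nonessential amino acids, pyruvate, insulin and horse serum, and do not state the medium of the mock cells or whether they received an empty virus. An effect of the factors and an effect of medium or virus therefore cannot be told apart in them, while GHMT against GMT and AGHMT against GHMT compare infected cells with each other. No batch is labelled, nor whether the replicates were separate cultures, and the p-values therefore rest on library-to-library spread that may be technical. Replicate 3 of AGHMT at day 2 stood apart from its group, with a larger spread of log2 deviations over genes (0.264) than any other library (0.164 to 0.209), and AGHMT counts of the 36 genes or of a list that changed without it are given both ways.

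Most of the genes were lower in cocktail cells than in mock, at both days. Under AGHMT at day 7, 29 of 36 were lower and 6 higher (edgeR's quasi-likelihood test, adjusted p under 0.05), where 38.1% of all genes tested were lower and 38.6% higher. The median log2 fold change of the 36 genes was -0.82, against -0.0033 over all genes tested. GHMT at day 7 gave 27 lower and 5 higher (median -0.67), where 35.6% of all genes were lower and 36.3% higher. GMT at day 7 gave 29 lower and 6 higher (median -0.74), where 36% of all genes were lower and 37.1% higher. At day 2, AGHMT gave 28 lower and 5 higher (median -1.14), the same counts as without replicate 3, where 37.4% of all genes were lower and 38% higher. GHMT at day 2 gave 29 lower and 5 higher (median -0.95), where 33.3% of all genes were lower and 34.9% higher. GMT at day 2 gave 30 lower and 6 higher (median -0.77), where 33.1% of all genes were lower and 33.9% higher. The medians over all genes tested lay between -0.0033 and 0.012 in these 6 comparisons. The cocktails of a day share its 3 mock libraries, so their comparisons with mock are not independent of each other.

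Most genes of each of the 4 kinds were lower. Under AGHMT at day 7, 7 of 10 stress regulators, 9 of 12 synthesis enzymes, 8 of 9 transporters and 5 of 5 tRNA synthetases were lower, while 3, 2, 1 and 0 of them were higher. Of all genes tested, 38.1% were lower and 38.6% higher in that comparison. The median log2 fold changes of the 4 kinds were -0.59, -0.95, -1.90 and -0.54 in the same order. At day 2 the medians under AGHMT were -0.36, -1.74, -1.54 and -1.04, so that the synthesis enzymes and tRNA synthetases stood further below mock at day 2 than at day 7.

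**Figure D1:**
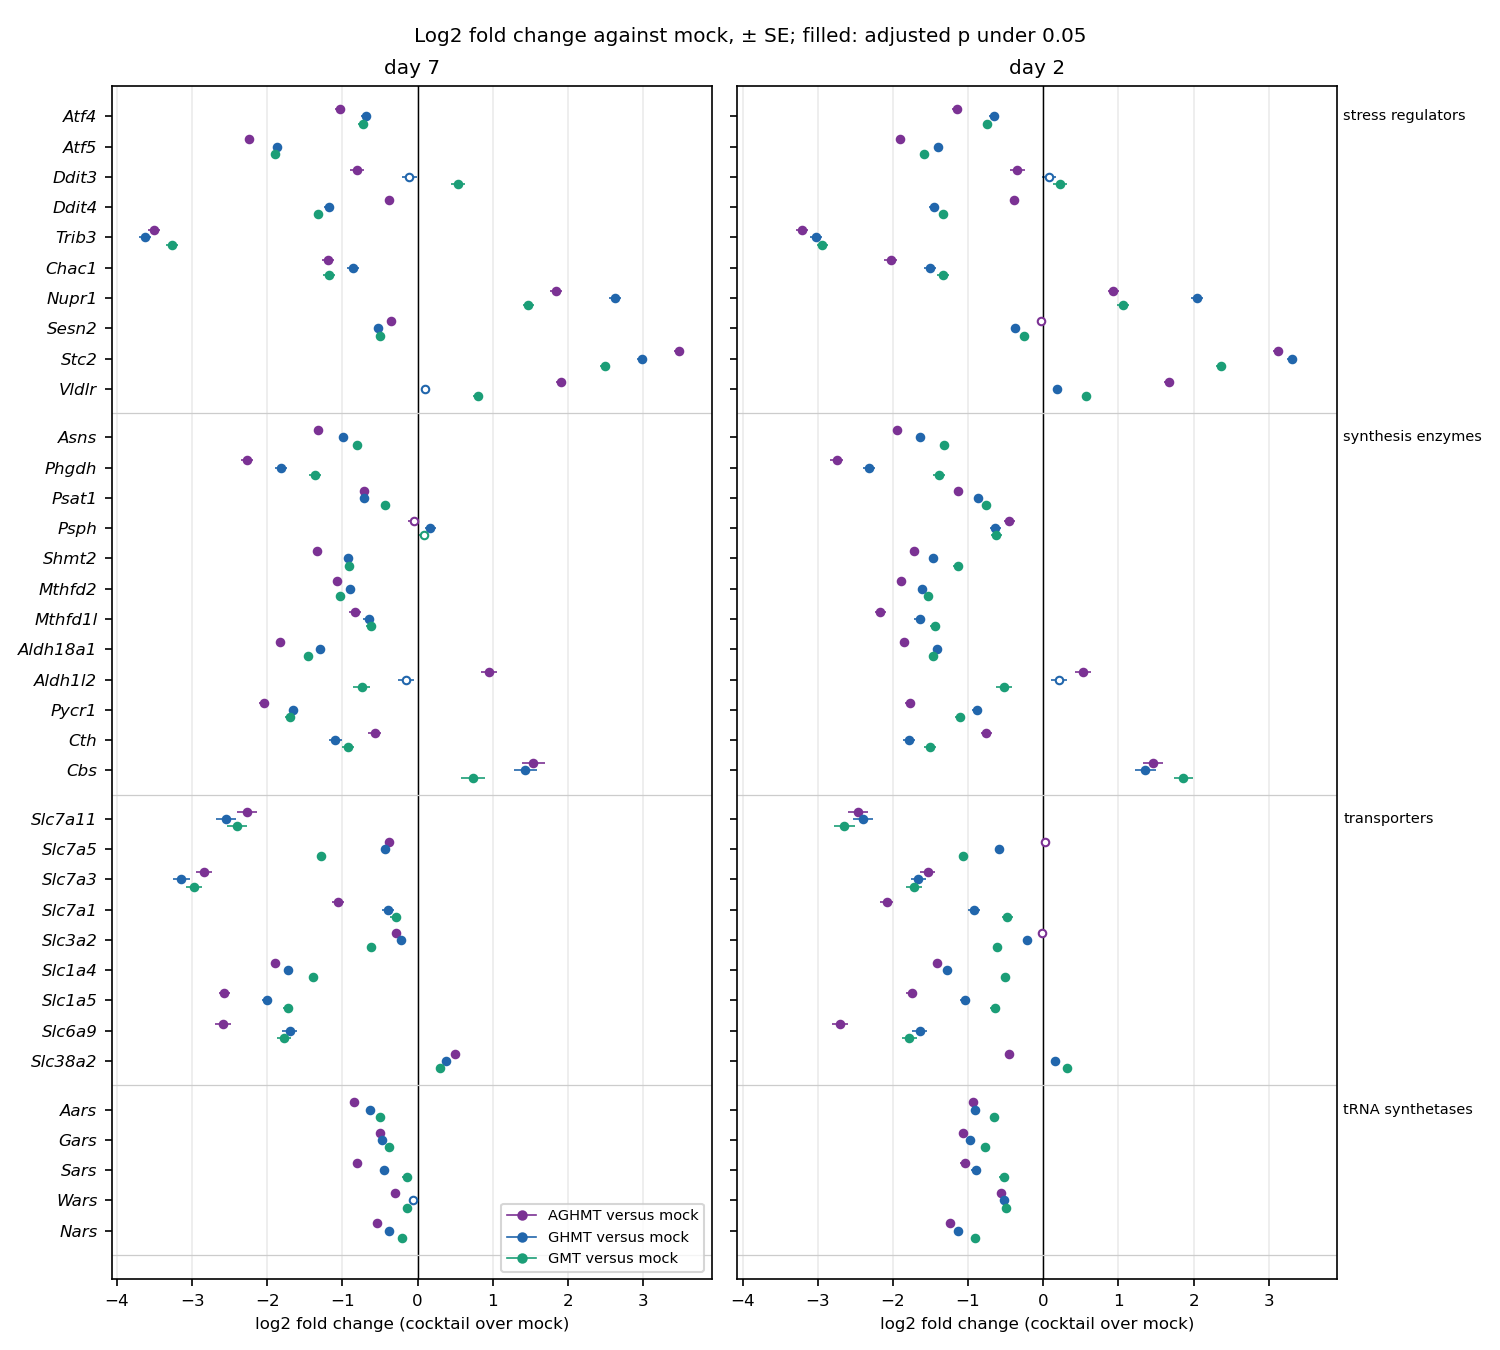
Log2 fold change of each of the 36 genes against the mock of the same day (x axis, points with SE), at day 7 (left) and day 2 (right), for AGHMT, GHMT and GMT, with filled points at an adjusted p under 0.05. Most points lie left of 0, Trib3 reaches -3.62 under GHMT at day 7, and Stc2, Nupr1 and Cbs lie right of 0 in all 3 cocktails at both days.

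The promoter sequences were searched for the element that ATF4 and C/EBP proteins bind. The genes were chosen for their known part in the ATF4 response, so an excess of the element among them is partly given by that choice. RefSeq windows of 300 bases on GRCm38.p6, with 250 bases before the gene's start and 50 after it, were matched by symbol for 29 of the 36 genes. The core letters TGATGNAA, on either strand, were present in 10 of the 29 genes (34.5%). The share was 2.82% of the 12014 tested genes with such a window and 4.51% of all 27025 genes with one. A gene with several windows counted if any of them held a match, and another window of Vldlr held none. The 10 genes are Chac1, Trib3, Nupr1 and Vldlr among the stress regulators, Asns and Pycr1 among the enzymes, Slc7a11 and Slc1a4 among the transporters, and Gars and Aars among the tRNA synthetases. A match is a run of letters in this window and not a measured binding site. Of the 10 genes with a match, 8 were lower and 2 higher under AGHMT at day 7 (median log2 -1.26). Of the 19 without one, 15 were lower, 3 higher and 1 not called (median log2 -0.81). Of all genes tested, 38.1% were lower and 38.6% higher in that comparison. The windows below are those of the gene with a match that was lowest under AGHMT at day 7 in each of the 4 kinds, followed by Nupr1, which carries a match and was higher. They are written on the gene's own strand, 5′ to 3′, with the matched letters in capitals.
Trib3 (chr2:152344011-152344310, minus strand): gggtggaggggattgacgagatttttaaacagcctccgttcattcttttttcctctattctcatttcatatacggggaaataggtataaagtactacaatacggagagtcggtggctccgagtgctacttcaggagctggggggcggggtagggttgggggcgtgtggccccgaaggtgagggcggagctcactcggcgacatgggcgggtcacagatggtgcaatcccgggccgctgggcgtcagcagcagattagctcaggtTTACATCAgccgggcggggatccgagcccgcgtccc
Pycr1 (chr11:120643699-120643998, minus strand): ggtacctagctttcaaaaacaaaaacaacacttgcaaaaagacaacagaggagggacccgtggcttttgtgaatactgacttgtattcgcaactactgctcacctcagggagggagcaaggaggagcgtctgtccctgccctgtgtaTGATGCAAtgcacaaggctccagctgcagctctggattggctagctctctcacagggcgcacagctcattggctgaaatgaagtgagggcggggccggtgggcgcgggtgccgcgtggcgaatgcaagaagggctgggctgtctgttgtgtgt
Slc7a11 (chr3:50443564-50443863, minus strand): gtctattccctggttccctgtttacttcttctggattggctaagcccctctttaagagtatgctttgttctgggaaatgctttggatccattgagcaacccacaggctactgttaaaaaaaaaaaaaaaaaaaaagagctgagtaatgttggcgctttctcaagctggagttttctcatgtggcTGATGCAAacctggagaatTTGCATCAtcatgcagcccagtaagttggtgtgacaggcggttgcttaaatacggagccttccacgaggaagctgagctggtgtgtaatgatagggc
Aars (chr8:111033592-111033891, plus strand): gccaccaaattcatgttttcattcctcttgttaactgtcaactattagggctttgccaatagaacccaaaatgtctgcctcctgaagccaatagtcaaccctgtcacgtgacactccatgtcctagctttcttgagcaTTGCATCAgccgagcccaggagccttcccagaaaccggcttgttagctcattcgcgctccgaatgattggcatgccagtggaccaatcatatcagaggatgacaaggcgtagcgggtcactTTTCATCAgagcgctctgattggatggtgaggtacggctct
Nupr1 (chr7:126625421-126625720, minus strand): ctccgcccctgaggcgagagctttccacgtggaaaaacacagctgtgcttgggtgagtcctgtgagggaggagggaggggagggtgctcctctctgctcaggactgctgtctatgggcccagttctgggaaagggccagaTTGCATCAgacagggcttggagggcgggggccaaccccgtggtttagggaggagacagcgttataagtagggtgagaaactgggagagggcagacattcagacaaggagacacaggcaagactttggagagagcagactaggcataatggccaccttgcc
Slc7a11 holds 2 matches that start at bases 185 and 204 of its window, on opposite strands, and Aars holds 2 that start at bases 139 and 260. The matches of Pycr1, Nupr1 and Trib3 start at bases 148, 141 and 265. The start of a gene in these windows is RefSeq's, and by the limits of the GENCODE genes given with the values the match of Nupr1 lies inside the gene and that of Trib3 before it. The matches of Aars also lie inside its GENCODE gene (111033144-111057664).

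Among the stress regulators, Atf4 itself (ENSMUSG00000042406, chromosome 15, 80255184-80257541 on GRCm38) was lower in every cocktail. At day 7 it stood at 162, 159.7 and 153 CPM in AGHMT, 195, 213 and 196 CPM in GHMT, 202, 192 and 194 CPM in GMT, and 330.2, 323 and 319 CPM in mock libraries. At day 2 it stood at 122, 124 and 158 CPM in AGHMT, 186, 186 and 199.8 CPM in GHMT, 178, 178 and 181 CPM in GMT, and 295, 302 and 303 CPM in mock libraries. The mock libraries lay above all cocktail libraries at both days, and AGHMT was the lowest cocktail at both days, with its replicate 3 at day 2 nearest to the others. Atf4 was 2.05-fold lower than mock under AGHMT at day 7 (log2 -1.03 ± 0.064, edgeR, adjusted p = 2.02e-13), with log2 -0.69 ± 0.064 under GHMT and -0.72 ± 0.064 under GMT, and -1.15 ± 0.065, -0.65 ± 0.064 and -0.74 ± 0.064 for AGHMT, GHMT and GMT at day 2.

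Atf5 (ENSMUSG00000038539, chromosome 7, 44812256-44816658), a related factor whose messenger RNA is controlled by eIF2α in the same way, fell further. At day 7, Atf5 stood at 95.7, 89.6 and 95.1 CPM in AGHMT, 116, 129 and 117 CPM in GHMT, 121, 118 and 115 CPM in GMT, and 458, 444 and 421 CPM in mock libraries. At day 2, Atf5 stood at 79.1, 78.4 and 93.3 CPM in AGHMT, 114, 122 and 121 CPM in GHMT, 103, 103 and 108 CPM in GMT, and 305, 320.5 and 314 CPM in mock libraries. Cocktail and mock libraries did not overlap, and the log2 fold change was -2.24 ± 0.058 under AGHMT at day 7 (edgeR, adjusted p = 2.93e-21) and -1.91 ± 0.058 at day 2. Exons of Atf5 overlap those of Il4i1 and Nup62 on the opposite strand, and since the strand setting of the counting is not given in the sources used here, some of its reads may be theirs.

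Trib3 (ENSMUSG00000032715, chromosome 2, 152337422-152344032), a pseudokinase that binds ATF4 and AKT and is a sensitive ATF4 target, had the largest fall of the 36 genes under AGHMT at day 7. Its 3 values at day 7 were 7.77, 8.55 and 7.43 CPM in AGHMT, 6.95, 7.56 and 7.35 CPM in GHMT, 10.00, 8.91 and 9.14 CPM in GMT, and 90.3, 94.9 and 84.4 CPM in mock libraries. At day 2, Trib3 stood at 7.04, 6.64 and 8.42 CPM in AGHMT, 8.89, 8.75 and 7.596 CPM in GHMT, 9.02, 8.68 and 8.99 CPM in GMT, and 61.5, 71.0 and 72.1 CPM in mock libraries. No cocktail library reached 11 CPM, while no mock library lay under 61 CPM. Trib3 was 11.4-fold lower under AGHMT at day 7 (log2 -3.51 ± 0.080, edgeR, adjusted p = 2.05e-22), 12.3-fold lower under GHMT and 9.62-fold lower under GMT.

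Chac1, an enzyme that degrades glutathione and follows ATF4 closely, was lower too. At day 7, Chac1 stood at 12.1, 13.8 and 11.8 CPM in AGHMT, 15.9, 14.9 and 16.7 CPM in GHMT, 14.1, 12.2 and 11.8 CPM in GMT, and 30.1, 30.6 and 25.5 CPM in mock libraries. At day 2, Chac1 stood at 6.06, 5.46 and 6.73 CPM in AGHMT, 9.09, 8.68 and 8.56 CPM in GHMT, 9.79, 9.76 and 10.2 CPM in GMT, and 24.4, 25.8 and 24.6 CPM in mock libraries. Mock was above every cocktail library at both days, and the fall was larger at day 2 (log2 -2.03 ± 0.086 under AGHMT, edgeR, adjusted p = 7.51e-17) than at day 7 (-1.19 ± 0.078), a day difference of 0.84 ± 0.12 (edgeR, adjusted p = 1.50e-06).

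Ddit3, which encodes the pro-apoptotic factor CHOP, split the cocktails. At day 7, Ddit3 stood at 47.7, 47.6 and 43.9 CPM in AGHMT, 67.1, 87.3 and 71.1 CPM in GHMT, 119.6, 126 and 108 CPM in GMT, and 81.5, 83.2 and 78.6 CPM in mock libraries. At day 2, Ddit3 stood at 44.3, 49.6 and 60.8 CPM in AGHMT, 64.3, 64.7 and 78.0 CPM in GHMT, 75.8, 77.3 and 75.8 CPM in GMT, and 61.0, 70.9 and 64.5 CPM in mock libraries. AGHMT was below mock and GMT above it at both days, without overlap, while GHMT overlapped mock at both and was called at neither. Without its replicate 2, the highest of the 3, GHMT at day 7 was called lower (log2 -0.23, edgeR, adjusted p = 0.0381). The differences from mock were log2 -0.81 ± 0.10 under AGHMT (edgeR, adjusted p = 6.56e-08) and 0.54 ± 0.10 under GMT (edgeR, adjusted p = 1.78e-05) at day 7. At day 2 that of GMT was smaller, at log2 0.22 ± 0.10 (edgeR, adjusted p = 0.047), and its call was lost, with an adjusted p up to 0.171, when any of 8 single libraries was left out. Exons of Ddit3 overlap those of Mars and Gm4189 on the opposite strand, and those of another gene entry also named Ddit3 on the same strand.

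Ddit4, an inhibitor of the growth kinase mTORC1 also known as REDD1, stood closer to mock under AGHMT than under the other cocktails. At day 7, Ddit4 stood at 67.0, 68.4 and 64.8 CPM in AGHMT, 37.7, 39.5 and 37.7 CPM in GHMT, 35.6, 34.3 and 34.2 CPM in GMT, and 87.2, 95.3 and 78.3 CPM in mock libraries. At day 2, Ddit4 stood at 72.4, 68.2 and 77.9 CPM in AGHMT, 33.8, 34.6 and 35.5 CPM in GHMT, 37.9, 36.03 and 39.2 CPM in GMT, and 94.0, 95.6 and 95.9 CPM in mock libraries. GHMT and GMT lay below AGHMT, and AGHMT below mock, without overlap at either day. Sesn2, a leucine sensor that restrains mTORC1, lay nearer to mock. At day 7, Sesn2 stood at 107, 107 and 111 CPM in AGHMT, 94.2, 96.8 and 96.4 CPM in GHMT, 96.6, 101 and 95.0 CPM in GMT, and 143, 139 and 134 CPM in mock libraries. At day 2, Sesn2 stood at 123, 123 and 122 CPM in AGHMT, 101, 91.5 and 97.4 CPM in GHMT, 105.005, 102 and 108 CPM in GMT, and 118, 127 and 130.3 CPM in mock libraries. Its difference from mock lay between log2 -0.53 under GHMT at day 7 and -0.027 under AGHMT at day 2, where it overlapped mock and was not called (edgeR, adjusted p = 0.573).

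The 3 remaining stress genes were higher under AGHMT at both days. Stc2 (ENSMUSG00000020303, chromosome 11, 31357307-31370074), the secreted glycoprotein stanniocalcin-2 and an ATF4 target in stressed cells, rose the most of the 36 genes. At day 7, Stc2 stood at 191, 198 and 189.7 CPM in AGHMT, 139, 141 and 132 CPM in GHMT, 93.8, 103 and 94.4 CPM in GMT, and 18.0, 18.9 and 14.9 CPM in mock libraries. At day 2, Stc2 stood at 145, 142 and 142 CPM in AGHMT, 164, 164 and 159 CPM in GHMT, 89.3, 83.8 and 81.4 CPM in GMT, and 17.2, 17.0 and 15.0 CPM in mock libraries. All cocktail libraries lay above 80 CPM and all mock libraries under 20 CPM. Stc2 was 11.2-fold higher under AGHMT at day 7 (log2 3.48 ± 0.067, edgeR, adjusted p = 6.82e-24), 7.95-fold higher under GHMT and 5.62-fold higher under GMT, and at day 2 its fold was largest under GHMT, at 9.87.

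Nupr1 (ENSMUSG00000030717, chromosome 7, 126623249-126630861), a small stress-induced chromatin protein whose promoter window holds the element, was highest with GHMT. At day 7, Nupr1 stood at 241, 232 and 223 CPM in AGHMT, 389, 420.2 and 399 CPM in GHMT, 179.5, 188 and 174 CPM in GMT, and 67.3, 67.5 and 60.1 CPM in mock libraries. At day 2, Nupr1 stood at 70.2, 71.5 and 92.1 CPM in AGHMT, 162, 161 and 183 CPM in GHMT, 80.7, 86.8 and 87.2 CPM in GMT, and 39.4, 43.2 and 39.8 CPM in mock libraries. GHMT exceeded GMT and AGHMT without overlap at both days. Against mock, Nupr1 had a log2 fold change of 1.84 ± 0.078 under AGHMT, 2.63 ± 0.080 under GHMT (edgeR, adjusted p = 7.91e-20) and 1.47 ± 0.078 under GMT at day 7.

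Vldlr, the receptor for very-low-density lipoprotein, was highest with AGHMT. At day 7, Vldlr stood at 237, 237 and 235 CPM in AGHMT, 71.6, 64.1 and 67.7 CPM in GHMT, 108, 115 and 108 CPM in GMT, and 65.0, 61.5 and 63.2 CPM in mock libraries. At day 2, Vldlr stood at 191, 185 and 157 CPM in AGHMT, 66.9, 64.7 and 59.3 CPM in GHMT, 83.9, 79.7 and 85.4 CPM in GMT, and 54.2, 58.0 and 55.3 CPM in mock libraries. AGHMT lay above all other libraries at both days, and GMT above GHMT and mock. Under AGHMT at day 7 Vldlr was 3.74-fold higher than mock (log2 1.90 ± 0.061, edgeR, adjusted p = 2.21e-19), whereas GHMT overlapped mock at day 7 (log2 0.10 ± 0.061, edgeR, adjusted p = 0.141). At day 2 the call of GHMT (log2 0.19 ± 0.061, edgeR, adjusted p = 0.00901) was lost without its replicate 1, with an adjusted p of 0.0541 by edgeR.

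Per kilobase of exon, the order of the stress genes differed between groups. Under AGHMT at day 7, Nupr1 was the most abundant, at 92.4 ± 3.67 CPM per kilobase, ahead of Atf4 at 67.1 ± 1.97, and Trib3 the least, at 3.73 ± 0.270. In mock, Atf5 led with 221 ± 9.51 CPM per kilobase, ahead of Atf4 at 137 ± 2.49, and Stc2 was the least abundant, at 3.34 ± 0.410.

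**Figure D2:**
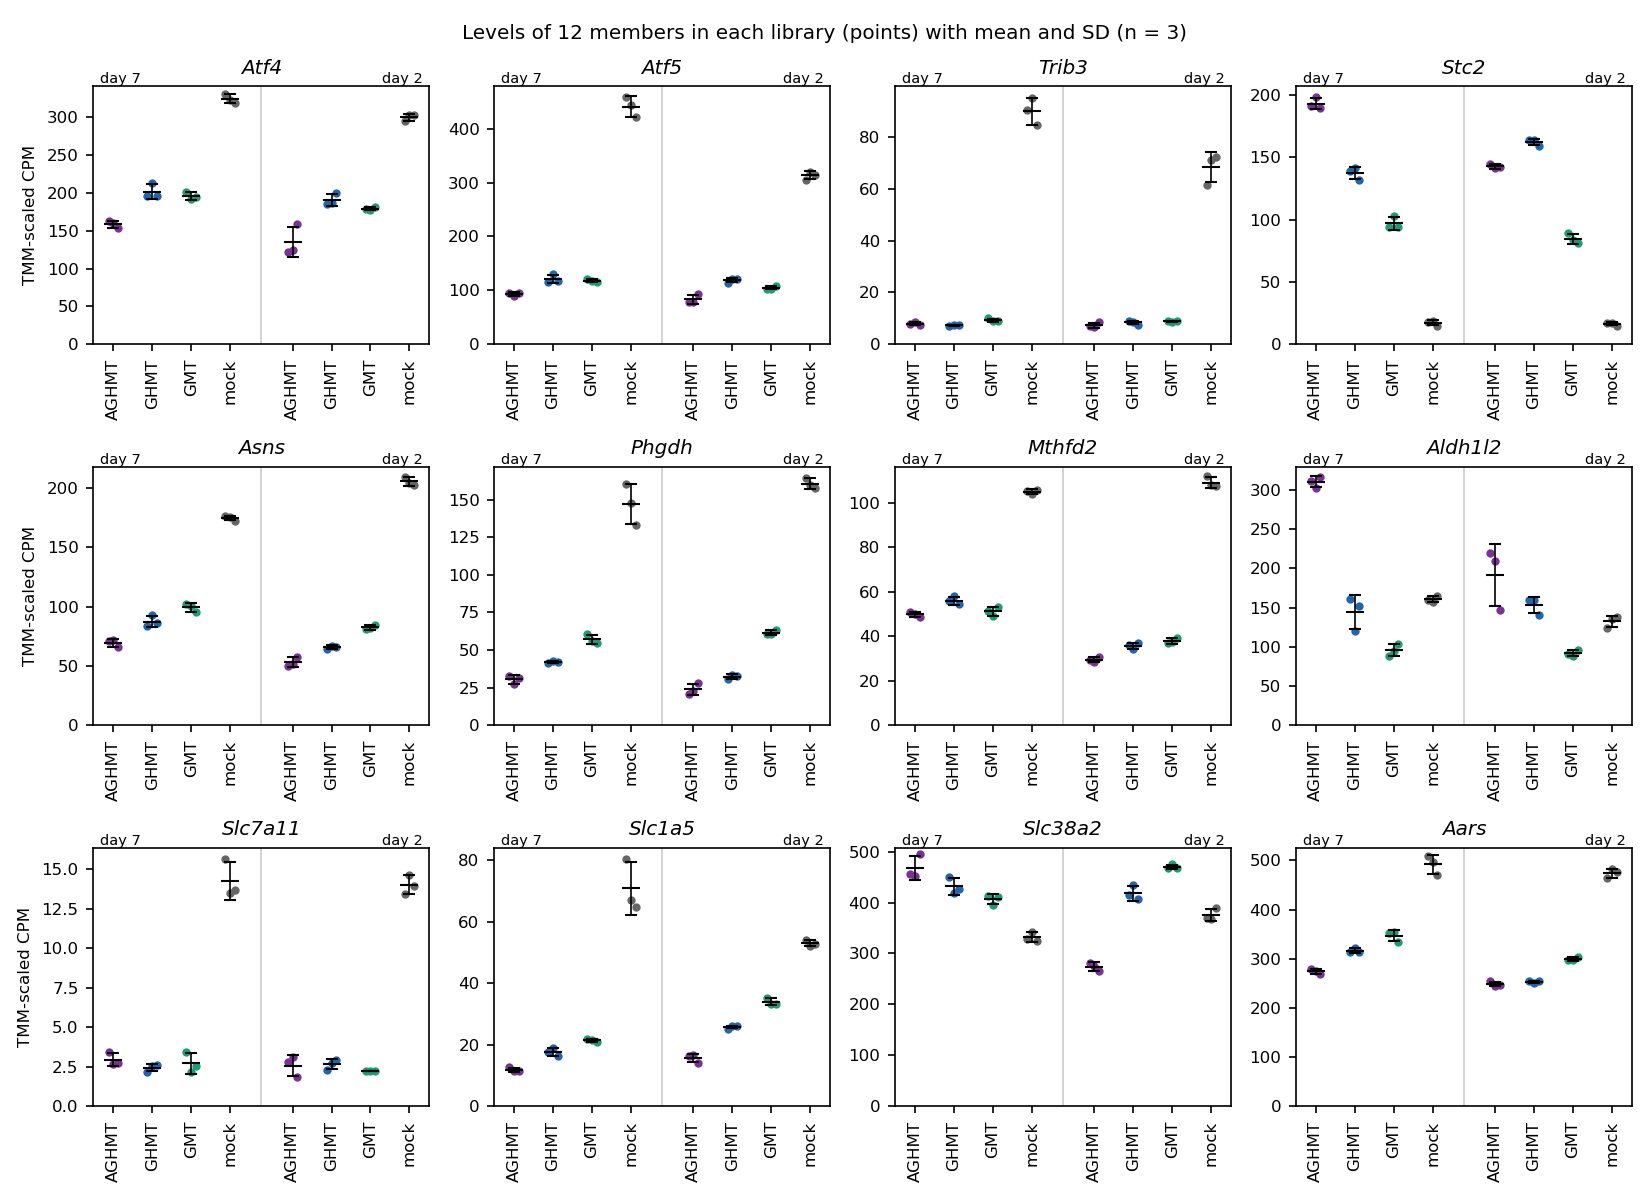
Levels of 12 of the 36 genes in TMM-scaled CPM (y axis, linear from 0) in each library (points), with the mean and SD of the 3 libraries of a group, day 7 in the left part of each panel and day 2 in the right, and AGHMT, GHMT, GMT and mock from left to right. Mock is above all cocktails for Atf4, Atf5, Trib3, Asns, Phgdh, Mthfd2, Slc7a11, Slc1a5 and Aars, and below them for Stc2, while Aldh1l2 and Slc38a2 go different ways by cocktail and day.

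The synthesis enzymes were mostly lower, beginning with the serine pathway. Phgdh (ENSMUSG00000053398, chromosome 3, 98313170-98339990), which takes the first committed step from glycolysis to serine, fell the most of the 3 serine enzymes. At day 7, Phgdh stood at 32.6, 27.2 and 31.5 CPM in AGHMT, 41.1, 42.5 and 42.0 CPM in GHMT, 60.5, 55.9 and 54.8 CPM in GMT, and 160.2, 147 and 133 CPM in mock libraries. At day 2, Phgdh stood at 20.6, 22.8 and 28.2 CPM in AGHMT, 30.5, 33.6 and 32.8 CPM in GHMT, 60.6, 60.5 and 63.6 CPM in GMT, and 164, 159.6 and 158 CPM in mock libraries. The groups were ordered AGHMT, GHMT, GMT and mock from low to high at both days, without overlap. Phgdh was 4.83-fold lower than mock under AGHMT at day 7 (log2 -2.27 ± 0.082, edgeR, adjusted p = 2.55e-18) and 6.71-fold lower at day 2.

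Psat1, the aminotransferase of the next step, fell less. At day 7, Psat1 stood at 125, 115 and 123 CPM in AGHMT, 124, 125 and 117 CPM in GHMT, 145, 149.8 and 148 CPM in GMT, and 205, 201 and 192 CPM in mock libraries. At day 2, Psat1 stood at 126, 120.3 and 136 CPM in AGHMT, 149.9, 150.03 and 162 CPM in GHMT, 167, 158 and 172 CPM in GMT, and 290.1, 279 and 274 CPM in mock libraries. Mock exceeded every cocktail library, with log2 -0.72 ± 0.049 under AGHMT at day 7 and -1.14 ± 0.049 at day 2, and mock itself was lower at day 7 than at day 2 (log2 -0.50 ± 0.049, edgeR, adjusted p = 4.20e-09).

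Psph, the phosphatase that releases free serine, did not follow the other 2 at day 7. At day 7, Psph stood at 25.5, 26.1 and 23.3 CPM in AGHMT, 29.1, 30.8 and 27.4 CPM in GHMT, 28.4, 27.4 and 26.4 CPM in GMT, and 24.3, 27.0 and 26.4 CPM in mock libraries. At day 2, Psph stood at 20.7, 21.4 and 25.7 CPM in AGHMT, 18.8, 19.7 and 21.2 CPM in GHMT, 18.9, 20.3 and 21.0 CPM in GMT, and 32.5, 30.8 and 29.4 CPM in mock libraries. AGHMT and GMT overlapped mock at day 7 and were not called (edgeR, adjusted p = 0.502 and 0.326), while every cocktail was below mock at day 2, from log2 -0.64 under GHMT to -0.45 under AGHMT. GHMT at day 7 was slightly above mock (log2 0.17 ± 0.072, edgeR, adjusted p = 0.039), a call lost without its replicate 1 or 2 or without mock replicate 1 or 3, with adjusted p up to 0.179. Exons of Psph overlap those of Cct6a on the opposite strand.

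Asns (ENSMUSG00000029752, chromosome 6, 7675169-7693254), asparagine synthetase and the best known target of amino acid shortage, was lower in all cocktails. At day 7, Asns stood at 71.5, 72.0 and 65.9 CPM in AGHMT, 83.7, 92.7 and 86.0 CPM in GHMT, 103, 101 and 95.4 CPM in GMT, and 176, 176 and 173 CPM in mock libraries. At day 2, Asns stood at 50.2, 51.7 and 57.8 CPM in AGHMT, 64.2, 67.2 and 66.2 CPM in GHMT, 81.1, 82.0 and 84.5 CPM in GMT, and 209.8, 205 and 202 CPM in mock libraries. The order was again AGHMT, GHMT, GMT and mock from low to high, without overlap. Asns was 2.51-fold lower than mock under AGHMT at day 7 (log2 -1.33 ± 0.050, edgeR, adjusted p = 6.45e-18) and 3.86-fold lower at day 2.

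The mitochondrial folate enzymes pass the carbon of serine on to formate, and 3 of the 4 were lower throughout. At day 7, Shmt2, which splits serine into glycine and a folate-bound carbon, stood at 41.8, 41.1 and 40.5 CPM in AGHMT, 53.4, 56.5 and 54.9 CPM in GHMT, 57.2, 53.4 and 55.3 CPM in GMT, and 113, 104 and 95.9 CPM in mock libraries. At day 2, Shmt2 stood at 40.4, 39.5 and 45.6 CPM in AGHMT, 49.0, 48.9 and 51.9 CPM in GHMT, 63.5, 61.5 and 62.7 CPM in GMT, and 145, 134 and 135 CPM in mock libraries. Mock exceeded all cocktail libraries of both days, with log2 -1.34 ± 0.056 at day 7 and -1.72 ± 0.056 at day 2 under AGHMT. At day 7, Mthfd2, the dehydrogenase that oxidises this carbon, stood at 51.1, 49.98 and 48.9 CPM in AGHMT, 55.8, 58.0 and 54.4 CPM in GHMT, 51.3, 49.1 and 53.1 CPM in GMT, and 106, 104 and 106 CPM in mock libraries. At day 2, Mthfd2 stood at 29.5, 28.4 and 30.6 CPM in AGHMT, 35.95, 34.4 and 36.9 CPM in GHMT, 37.1, 37.3 and 39.2 CPM in GMT, and 112, 108 and 108 CPM in mock libraries. Mock exceeded every cocktail library at both days, and the cocktails lay closer to each other than to mock. At day 7, Mthfd1l, which releases formate, stood at 13.9, 12.4 and 12.9 CPM in AGHMT, 15.3, 15.7 and 13.4 CPM in GHMT, 15.7, 14.1 and 15.6 CPM in GMT, and 24.4, 23.0 and 22.4 CPM in mock libraries. At day 2, Mthfd1l stood at 10.6, 8.81 and 9.56 CPM in AGHMT, 14.8, 13.5 and 13.5 CPM in GHMT, 17.0, 14.9 and 16.1 CPM in GMT, and 45.5, 44.2 and 40.8 CPM in mock libraries. Mock lay above each cocktail, and Mthfd1l had the largest day difference under AGHMT, with log2 -0.83 ± 0.075 against mock at day 7 and -2.17 ± 0.074 at day 2 (difference 1.33 ± 0.11, edgeR, adjusted p = 1.02e-10). Mock Mthfd1l was itself lower at day 7 than at day 2, by 1.87-fold. Exons of Shmt2 overlap those of Ndufa4l2 on the opposite strand.

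Aldh1l2 (ENSMUSG00000020256, chromosome 10, 83487450-83534140), the mitochondrial enzyme that oxidises formyl-folate to carbon dioxide, was the exception. At day 7, Aldh1l2 stood at 312, 302 and 317 CPM in AGHMT, 161, 119.6 and 153 CPM in GHMT, 88.3, 94.9 and 104 CPM in GMT, and 159.7, 157 and 165 CPM in mock libraries. At day 2, Aldh1l2 stood at 219, 209 and 147 CPM in AGHMT, 159, 159 and 141 CPM in GHMT, 91.4, 88.1 and 96.2 CPM in GMT, and 124, 135 and 138 CPM in mock libraries. AGHMT was above mock and GMT below it at both days without overlap, although replicate 3 of AGHMT at day 2 was far nearer to mock than the other 2. Under AGHMT Aldh1l2 was 1.93-fold higher than mock at day 7 (log2 0.95 ± 0.11, edgeR, adjusted p = 1.25e-08) and log2 0.53 ± 0.11 higher at day 2, or 0.69 without replicate 3. Under GMT it was lower, with log2 -0.75 ± 0.11 at day 7 (edgeR, adjusted p = 9.22e-07) and -0.53 ± 0.11 at day 2. GHMT was not called at either day (edgeR, adjusted p = 0.202 and 0.0841), but at day 2 it became higher than mock without AGHMT replicate 3 (log2 0.21, edgeR, adjusted p = 0.0091). It was also called higher at day 2 with only the compared libraries (edgeR, adjusted p = 0.00298) or no filter on low counts (edgeR, adjusted p = 2.26e-04). The same held without GHMT replicate 3 of day 2 or GHMT replicate 2 of day 7. With no filter, GHMT at day 7 was called lower than mock (log2 -0.16, edgeR, adjusted p = 0.0111). Exons of Aldh1l2 overlap an uncharacterised gene on the opposite strand.

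The enzymes of proline synthesis fell together. At day 7, Aldh18a1, which makes the proline precursor from glutamate, stood at 54.4, 53.0 and 56.8 CPM in AGHMT, 78.4, 80.2 and 79.4 CPM in GHMT, 72.1, 69.0 and 71.1 CPM in GMT, and 197, 197 and 190.3 CPM in mock libraries. At day 2, Aldh18a1 stood at 61.6, 61.5 and 57.8 CPM in AGHMT, 84.2, 80.4 and 79.7 CPM in GHMT, 76.9, 78.5 and 81.5 CPM in GMT, and 212, 220.2 and 220.0 CPM in mock libraries. AGHMT was lowest and mock highest at both days, without overlap with the others, with log2 -1.83 ± 0.040 (edgeR, adjusted p = 9.93e-23) and -1.85 ± 0.040 at day 7 and day 2. At day 7, Pycr1, the reductase of the last step, stood at 11.4, 10.4 and 12.1 CPM in AGHMT, 13.8, 15.5 and 15.3 CPM in GHMT, 13.8, 14.8 and 14.7 CPM in GMT, and 49.4, 46.4 and 44.4 CPM in mock libraries. At day 2, Pycr1 stood at 8.26, 9.20 and 9.26 CPM in AGHMT, 15.7, 17.2 and 16.4 CPM in GHMT, 13.6, 14.8 and 13.7 CPM in GMT, and 29.6, 32.0 and 29.4 CPM in mock libraries. The mock libraries were above all cocktail libraries at both days, and Pycr1 was 4.13-fold lower under AGHMT at day 7 (log2 -2.05 ± 0.065, edgeR, adjusted p = 2.04e-19).

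The 2 enzymes that turn homocysteine into cysteine went opposite ways. At day 7, Cth, the lyase of the second step, stood at 9.60, 8.19 and 8.15 CPM in AGHMT, 6.42, 5.68 and 5.97 CPM in GHMT, 7.47, 6.17 and 6.64 CPM in GMT, and 13.4, 12.4 and 12.7 CPM in mock libraries. At day 2, Cth stood at 12.1, 13.4 and 13.8 CPM in AGHMT, 5.72, 7.39 and 6.20 CPM in GHMT, 7.91, 7.92 and 7.599 CPM in GMT, and 22.2, 21.8 and 22.5 CPM in mock libraries. Mock exceeded every cocktail library, and AGHMT (log2 -0.57 ± 0.083 at day 7, edgeR, adjusted p = 1.03e-06) was nearer to mock than GHMT (-1.09 ± 0.087). At day 7, Cbs, the synthase of the first step, stood at 3.84, 3.62 and 2.83 CPM in AGHMT, 3.17, 3.07 and 3.31 CPM in GHMT, 1.78, 2.03 and 2.07 CPM in GMT, and 1.30, 1.27 and 0.951 CPM in mock libraries. At day 2, Cbs stood at 4.40, 3.91 and 5.46 CPM in AGHMT, 4.36, 4.07 and 4.43 CPM in GHMT, 6.12, 5.89 and 6.23 CPM in GMT, and 1.72, 1.76 and 1.53 CPM in mock libraries. All cocktail libraries were above mock, at low levels, with log2 1.54 ± 0.15 under AGHMT at day 7 (edgeR, adjusted p = 1.52e-09) and 1.86 ± 0.13 under GMT at day 2.

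Per kilobase of exon, Aldh1l2 was the most abundant of the 12 enzymes under AGHMT at day 7, at 41.4 ± 0.965 CPM per kilobase, and Asns in mock, at 63.9 ± 0.720. Phgdh was second in mock (59.1 ± 5.41), overlapping Asns in its spread, and seventh under AGHMT (12.2 ± 1.15). Cbs was the least abundant in both, at 0.458 ± 0.0713 under AGHMT and 0.157 ± 0.0257 in mock.

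The amino acid transporters had the largest median fall of the 4 kinds under AGHMT at day 7. Slc1a5 (ENSMUSG00000001918, chromosome 7, 16781340-16798274), the glutamine carrier ASCT2, was 5.95-fold lower than mock under AGHMT at day 7 (log2 -2.57 ± 0.074, edgeR, adjusted p = 2.43e-20). At day 7, Slc1a5 stood at 12.6, 11.5 and 11.5 CPM in AGHMT, 17.8, 18.8 and 16.3 CPM in GHMT, 21.9, 21.4 and 21.0 CPM in GMT, and 80.4, 67.0 and 64.8 CPM in mock libraries. At day 2, Slc1a5 stood at 16.4, 16.6 and 14.2 CPM in AGHMT, 25.2, 26.0 and 26.1 CPM in GHMT, 35.2, 33.3 and 33.2 CPM in GMT, and 54.0, 52.1 and 52.6 CPM in mock libraries. The order from low to high was AGHMT, GHMT, GMT and mock at both days, and the gap to mock was wider at day 7 under each cocktail. Slc1a4, its relative that carries alanine, serine and cysteine, was lower in all cocktails too. At day 7, Slc1a4 stood at 31.8, 32.8 and 30.8 CPM in AGHMT, 36.2, 34.7 and 36.1 CPM in GHMT, 45.1, 45.6 and 45.0 CPM in GMT, and 123, 115 and 117 CPM in mock libraries. At day 2, Slc1a4 stood at 38.5, 37.5 and 34.7 CPM in AGHMT, 40.8, 41.2 and 39.3 CPM in GHMT, 68.1, 70.3 and 68.4 CPM in GMT, and 93.5, 98.7 and 103 CPM in mock libraries. Mock exceeded every cocktail library, and GMT was the cocktail nearest to mock, with log2 -0.51 ± 0.043 at day 2 against -1.42 ± 0.045 under AGHMT.

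Slc7a11 (ENSMUSG00000027737, chromosome 3, 49892526-50443614), the cystine importer that supplies glutathione synthesis and whose window holds 2 matches, was low in all cocktails. At day 7, Slc7a11 stood at 3.43, 2.64 and 2.77 CPM in AGHMT, 2.19, 2.56 and 2.59 CPM in GHMT, 3.44, 2.14 and 2.55 CPM in GMT, and 15.6, 13.5 and 13.7 CPM in mock libraries. At day 2, Slc7a11 stood at 2.78, 3.09 and 1.83 CPM in AGHMT, 2.31, 2.75 and 2.90 CPM in GHMT, 2.25, 2.23 and 2.23 CPM in GMT, and 13.4, 14.6 and 13.9 CPM in mock libraries. No cocktail library reached 4 CPM and no mock library lay under 13 CPM. Slc7a11 was 4.84-fold lower under AGHMT at day 7 (log2 -2.27 ± 0.13, edgeR, adjusted p = 5.39e-14).

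The cationic carriers Slc7a3 and Slc7a1, which import arginine and lysine, fell unequally. At day 7, Slc7a3 stood at 2.71, 2.81 and 2.94 CPM in AGHMT, 1.99, 2.58 and 2.30 CPM in GHMT, 3.08, 2.43 and 2.26 CPM in GMT, and 22.6, 19.9 and 18.3 CPM in mock libraries. At day 2, Slc7a3 stood at 4.64, 4.93 and 4.6004 CPM in AGHMT, 4.06, 4.51 and 4.43 CPM in GHMT, 4.57, 3.58 and 4.30 CPM in GMT, and 12.6, 14.1 and 14.4 CPM in mock libraries. Mock was far above the cocktails, with log2 -2.84 ± 0.11 under AGHMT at day 7 (edgeR, adjusted p = 6.17e-18) and a smaller gap of -1.54 ± 0.10 at day 2. At day 7, Slc7a1 stood at 56.9, 53.7 and 55.2 CPM in AGHMT, 90.9, 81.8 and 90.2 CPM in GHMT, 97.5, 92.1 and 91.3 CPM in GMT, and 117, 119.6 and 108 CPM in mock libraries. At day 2, Slc7a1 stood at 34.3, 34.0 and 25.0 CPM in AGHMT, 71.2, 74.0 and 63.2 CPM in GHMT, 91.8, 93.4 and 98.8 CPM in GMT, and 139, 132 and 123 CPM in mock libraries. AGHMT lay below all other groups, at log2 -1.05 ± 0.081 against mock at day 7 and -2.08 ± 0.084 at day 2, while GMT stood at -0.29 ± 0.079 and -0.48 ± 0.078.

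Slc6a9, the glycine transporter GLYT1, was lowest with AGHMT. At day 7, Slc6a9 stood at 2.96, 2.74 and 3.09 CPM in AGHMT, 4.79, 5.36 and 6.17 CPM in GHMT, 5.22, 4.97 and 5.21 CPM in GMT, and 20.2, 17.1 and 15.5 CPM in mock libraries. At day 2, Slc6a9 stood at 2.69, 2.63 and 2.41 CPM in AGHMT, 5.78, 5.04 and 5.30 CPM in GHMT, 5.09, 4.40 and 5.19 CPM in GMT, and 15.5, 18.3 and 16.6 CPM in mock libraries. AGHMT lay below the other cocktails and all cocktails below mock, with log2 -2.59 ± 0.11 at day 7 (edgeR, adjusted p = 4.78e-17) and -2.71 ± 0.11 at day 2 under AGHMT. Its exons overlap those of B4galt2 and Ccdc24 on the opposite strand.

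Slc7a5 and Slc3a2 encode the 2 chains of the large neutral amino acid exchanger LAT1, the importer of leucine, and both were lowest with GMT. At day 7, Slc7a5 stood at 168, 159 and 165 CPM in AGHMT, 166, 155 and 149.97 CPM in GHMT, 88.8, 85.7 and 87.7 CPM in GMT, and 229, 208 and 201 CPM in mock libraries. At day 2, Slc7a5 stood at 224, 231 and 206 CPM in AGHMT, 148, 144 and 139 CPM in GHMT, 102, 101 and 108 CPM in GMT, and 217, 222 and 211 CPM in mock libraries. GMT was the lowest group at both days, and AGHMT at day 2 overlapped mock and was not called (edgeR, adjusted p = 0.699). At day 7, Slc3a2 stood at 179, 179 and 176 CPM in AGHMT, 183, 194 and 184 CPM in GHMT, 146, 142 and 138 CPM in GMT, and 228, 217 and 208 CPM in mock libraries. At day 2, Slc3a2 stood at 182, 181 and 209 CPM in AGHMT, 169.6, 159.8 and 167 CPM in GHMT, 123, 127 and 127 CPM in GMT, and 191, 198 and 190.1 CPM in mock libraries. GMT was again lowest (log2 -0.62 ± 0.049 at day 7, against -1.28 ± 0.052 for Slc7a5), and AGHMT at day 2 overlapped mock (edgeR, adjusted p = 0.743).

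Slc38a2 (ENSMUSG00000022462, chromosome 15, 96687392-96699730), the glutamine and alanine carrier SNAT2, was the transporter that rose. At day 7, Slc38a2 stood at 456, 453 and 496 CPM in AGHMT, 451, 419 and 426 CPM in GHMT, 414, 396 and 411 CPM in GMT, and 328, 343 and 325 CPM in mock libraries. At day 2, Slc38a2 stood at 281, 276 and 265 CPM in AGHMT, 415, 435 and 406 CPM in GHMT, 467, 475 and 468 CPM in GMT, and 369.8, 368 and 389.9 CPM in mock libraries. All cocktail libraries were above mock at day 7, and at day 2 GHMT and GMT were above mock while AGHMT was below it. The log2 fold change under AGHMT was 0.50 ± 0.043 at day 7 (edgeR, adjusted p = 1.72e-10) and -0.46 ± 0.044 at day 2 (edgeR, adjusted p = 8.65e-10), or -0.43 without replicate 3. Under GHMT and GMT it was 0.38 ± 0.043 and 0.29 ± 0.043 at day 7, and 0.15 ± 0.043 and 0.32 ± 0.043 at day 2. The call under GHMT at day 2 was lost with library totals in place of TMM factors (log2 0.084, edgeR, adjusted p = 0.0913). Per kilobase of exon, Slc38a2 was the most abundant of the 9 transporters under AGHMT at day 7 (52.9 ± 2.71 CPM per kilobase), within the spread of Slc3a2 (50.4 ± 0.506). In mock Slc3a2 (61.6 ± 2.88) and Slc7a5 (57.4 ± 3.93), whose spreads overlap, stood above Slc38a2 (37.6 ± 1.05).

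The 5 tRNA synthetases had a smaller median fall under AGHMT than the transporters at both days, and a larger one at day 2 than at day 7. At day 7, Aars, which charges alanine tRNA, stood at 279, 275 and 269 CPM in AGHMT, 314, 322 and 314 CPM in GHMT, 352, 354 and 335 CPM in GMT, and 509, 496 and 471 CPM in mock libraries. At day 2, Aars stood at 254, 245 and 247 CPM in AGHMT, 254, 251 and 255 CPM in GHMT, 298, 297 and 304 CPM in GMT, and 463, 482 and 477 CPM in mock libraries. Mock was above every cocktail library, with log2 -0.84 ± 0.037 at day 7 (edgeR, adjusted p = 1.36e-16) and -0.93 ± 0.037 at day 2 under AGHMT. At day 7, Gars, for glycine tRNA, stood at 196, 189 and 189 CPM in AGHMT, 192, 205 and 191 CPM in GHMT, 209, 209.6 and 205 CPM in GMT, and 272, 277 and 264 CPM in mock libraries. At day 2, Gars stood at 167, 164 and 184 CPM in AGHMT, 184, 180.1 and 187 CPM in GHMT, 212, 213 and 209.6 CPM in GMT, and 361, 356 and 363 CPM in mock libraries. Its libraries did not overlap mock, and its fall under AGHMT was log2 -0.50 ± 0.041 at day 7 and -1.07 ± 0.041 at day 2. Exons of Aars overlap those of Exosc6 on the same strand.

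At day 7, Sars, for serine tRNA, stood at 171, 168 and 159 CPM in AGHMT, 201, 231 and 207 CPM in GHMT, 268, 264 and 254 CPM in GMT, and 296, 292 and 282 CPM in mock libraries. At day 2, Sars stood at 145, 141 and 169 CPM in AGHMT, 164, 166 and 174 CPM in GHMT, 221, 215 and 216 CPM in GMT, and 310.5, 321 and 308 CPM in mock libraries. Values increased in the order AGHMT, GHMT, GMT and mock at day 7, and the small fall under GMT (log2 -0.15 ± 0.056, edgeR, adjusted p = 0.0213) was not called without GMT replicate 3 or mock replicate 1. At day 7, Nars, for asparagine tRNA, stood at 265, 256 and 254 CPM in AGHMT, 286, 295 and 285 CPM in GHMT, 327, 334 and 317 CPM in GMT, and 376, 380.1 and 373 CPM in mock libraries. At day 2, Nars stood at 194, 189.9 and 229 CPM in AGHMT, 217, 214 and 232 CPM in GHMT, 254, 253 and 266 CPM in GMT, and 492, 482 and 473 CPM in mock libraries. No cocktail library reached mock, and Nars fell by more at day 2 (log2 -1.24 ± 0.053 under AGHMT) than at day 7 (-0.54 ± 0.052). At day 7, Wars, for tryptophan tRNA, stood at 67.1, 63.0 and 63.3 CPM in AGHMT, 73.9, 79.3 and 77.1 CPM in GHMT, 71.8, 75.8 and 70.2 CPM in GMT, and 81.7, 78.6 and 79.1 CPM in mock libraries. At day 2, Wars stood at 63.3, 63.8 and 65.8 CPM in AGHMT, 66.2, 62.3 and 69.5 CPM in GHMT, 66.3, 66.4 and 68.8 CPM in GMT, and 95.0, 96.5 and 93.8 CPM in mock libraries. GHMT overlapped mock at day 7 and was not called (edgeR, adjusted p = 0.246), whereas all cocktails lay below mock at day 2, at log2 -0.56, -0.53 and -0.50 in AGHMT, GHMT and GMT. Gars and Nars were the most abundant per kilobase of exon under AGHMT at day 7 (61.3 ± 1.22 and 59.3 ± 1.41 CPM per kilobase) and in mock (86.9 ± 2.21 and 86.4 ± 0.801), and did not differ beyond their spread.

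With Akt1 added to GHMT, a comparison within infected cells, more of these genes were lower than higher. At day 7, 20 of 36 were lower and 7 higher in AGHMT than in GHMT, where 23.6% of all genes tested were lower and 25% higher, with a median log2 of -0.17 for the 36 and -0.0024 for all. At day 2, 20 were lower and 8 higher, where 27% of all genes were lower and 25.7% higher, with medians of -0.18 and -0.017. Without AGHMT replicate 3 the counts at day 2 were 22 lower and 7 higher. With library totals they were 17 lower and 8 higher, where 3629 of all genes were lower and 5775 higher. The factors that both cocktails hold differed in level too. At day 7, Gata4, Mef2c and Tbx5 averaged 633, 1643 and 1730 CPM in AGHMT against 1142, 2016 and 2746 CPM in GHMT. At day 2 they averaged 1133, 2819 and 2637 CPM in AGHMT against 1479, 3054 and 3409 CPM in GHMT. Hand2 averaged 1125 against 978 CPM at day 7 and 1015 against 1166 CPM at day 2. The part of these levels in the differences was not tested.

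The largest rises with Akt1 at day 7 were those of Vldlr, Aldh1l2, Ddit4 and Cth. Vldlr was 3.48-fold higher in AGHMT than in GHMT at day 7 (log2 1.80 ± 0.061, edgeR, adjusted p = 1.10e-17) and 2.80-fold at day 2. Aldh1l2 differed by log2 1.10 ± 0.11 at day 7 (edgeR, adjusted p = 3.52e-09) and by 0.32 ± 0.11 at day 2, where AGHMT replicate 3 lay among the GHMT libraries. Ddit4, a target of the FoxO factors that AKT restrains as well as of ATF4, was higher by log2 0.80 ± 0.057 at day 7 and 1.07 ± 0.058 at day 2 (edgeR, adjusted p = 6.56e-14). Cth was higher by log2 0.52 ± 0.091 at day 7 and 1.03 ± 0.087 at day 2, and Slc7a5 by 0.61 ± 0.051 at day 2, while at day 7 it was not called (log2 0.060 ± 0.051, edgeR, adjusted p = 0.358).

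The falls with Akt1 took in the upstream factors and several carriers. Atf4 differed by log2 -0.35 ± 0.064 (edgeR, adjusted p = 6.77e-05) at day 7 and -0.50 ± 0.064 at day 2, and Atf5 by -0.37 ± 0.057 and -0.51 ± 0.057. Ddit3 was lower by log2 -0.70 ± 0.10 at day 7 and -0.42 ± 0.10 at day 2, and Nupr1 by -0.79 ± 0.074 and -1.11 ± 0.077 (edgeR, adjusted p = 7.16e-12 at day 2). Among the carriers, Slc6a9 differed by -0.88 ± 0.12 and -1.06 ± 0.13, Slc7a1 by -0.66 ± 0.081 and -1.16 ± 0.085, and Slc1a5 by -0.57 ± 0.079 and -0.71 ± 0.075. Trib3, Slc7a11 and Slc7a3, all far below mock in every cocktail, were not called between AGHMT and GHMT at either day, with log2 differences from -0.19 to 0.30.

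Adding Hand2 to GMT gave a mixed picture. At day 7, 11 of 36 were lower and 9 higher in GHMT than in GMT, where 18.8% of all genes tested were lower and 18.7% higher, with a median log2 of -0.017 for the 36 and -0.0034 for all. At day 2, 16 were lower and 7 higher, where 21.7% of all genes were lower and 23.1% higher, with medians of -0.12 and -0.00036. With library totals in place of TMM factors, 22 were lower and 5 higher at day 2, but the balance of all genes turned as well, with 5770 lower and 2762 higher. Nupr1 was 2.23-fold higher with Hand2 at day 7 (log2 1.16 ± 0.075, edgeR, adjusted p = 2.62e-12) and 1.99-fold at day 2. Both LAT1 chains were higher with Hand2, Slc7a5 by log2 0.85 ± 0.052 at day 7 and 0.47 ± 0.052 at day 2, and Slc3a2 by 0.40 ± 0.049 and 0.39 ± 0.049. Stc2 was higher by 0.50 ± 0.058 and 0.94 ± 0.059, and Aldh1l2 by 0.59 ± 0.11 and 0.74 ± 0.11. Phgdh was lower with Hand2, by -0.45 ± 0.080 at day 7 and -0.93 ± 0.082 at day 2 (edgeR, adjusted p = 6.74e-10), and so were Vldlr (-0.70 ± 0.060 and -0.38 ± 0.061) and Slc1a4 (-0.34 ± 0.046 and -0.77 ± 0.045). Cbs turned round, being higher with Hand2 at day 7 (0.70 ± 0.14) and lower at day 2 (-0.50 ± 0.11). Atf4 was called at neither day (log2 0.039 ± 0.064 and 0.089 ± 0.064, edgeR, adjusted p = 0.675 and 0.282). The shared factors differed in level here as well. At day 7, Gata4, Mef2c and Tbx5 averaged 1142, 2016 and 2746 CPM in GHMT against 1022, 1681 and 2327 CPM in GMT. At day 2 they averaged 1479, 3054 and 3409 CPM in GHMT against 1143, 2800 and 2983 CPM in GMT. The part of these levels was not tested.

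**Figure D3:**
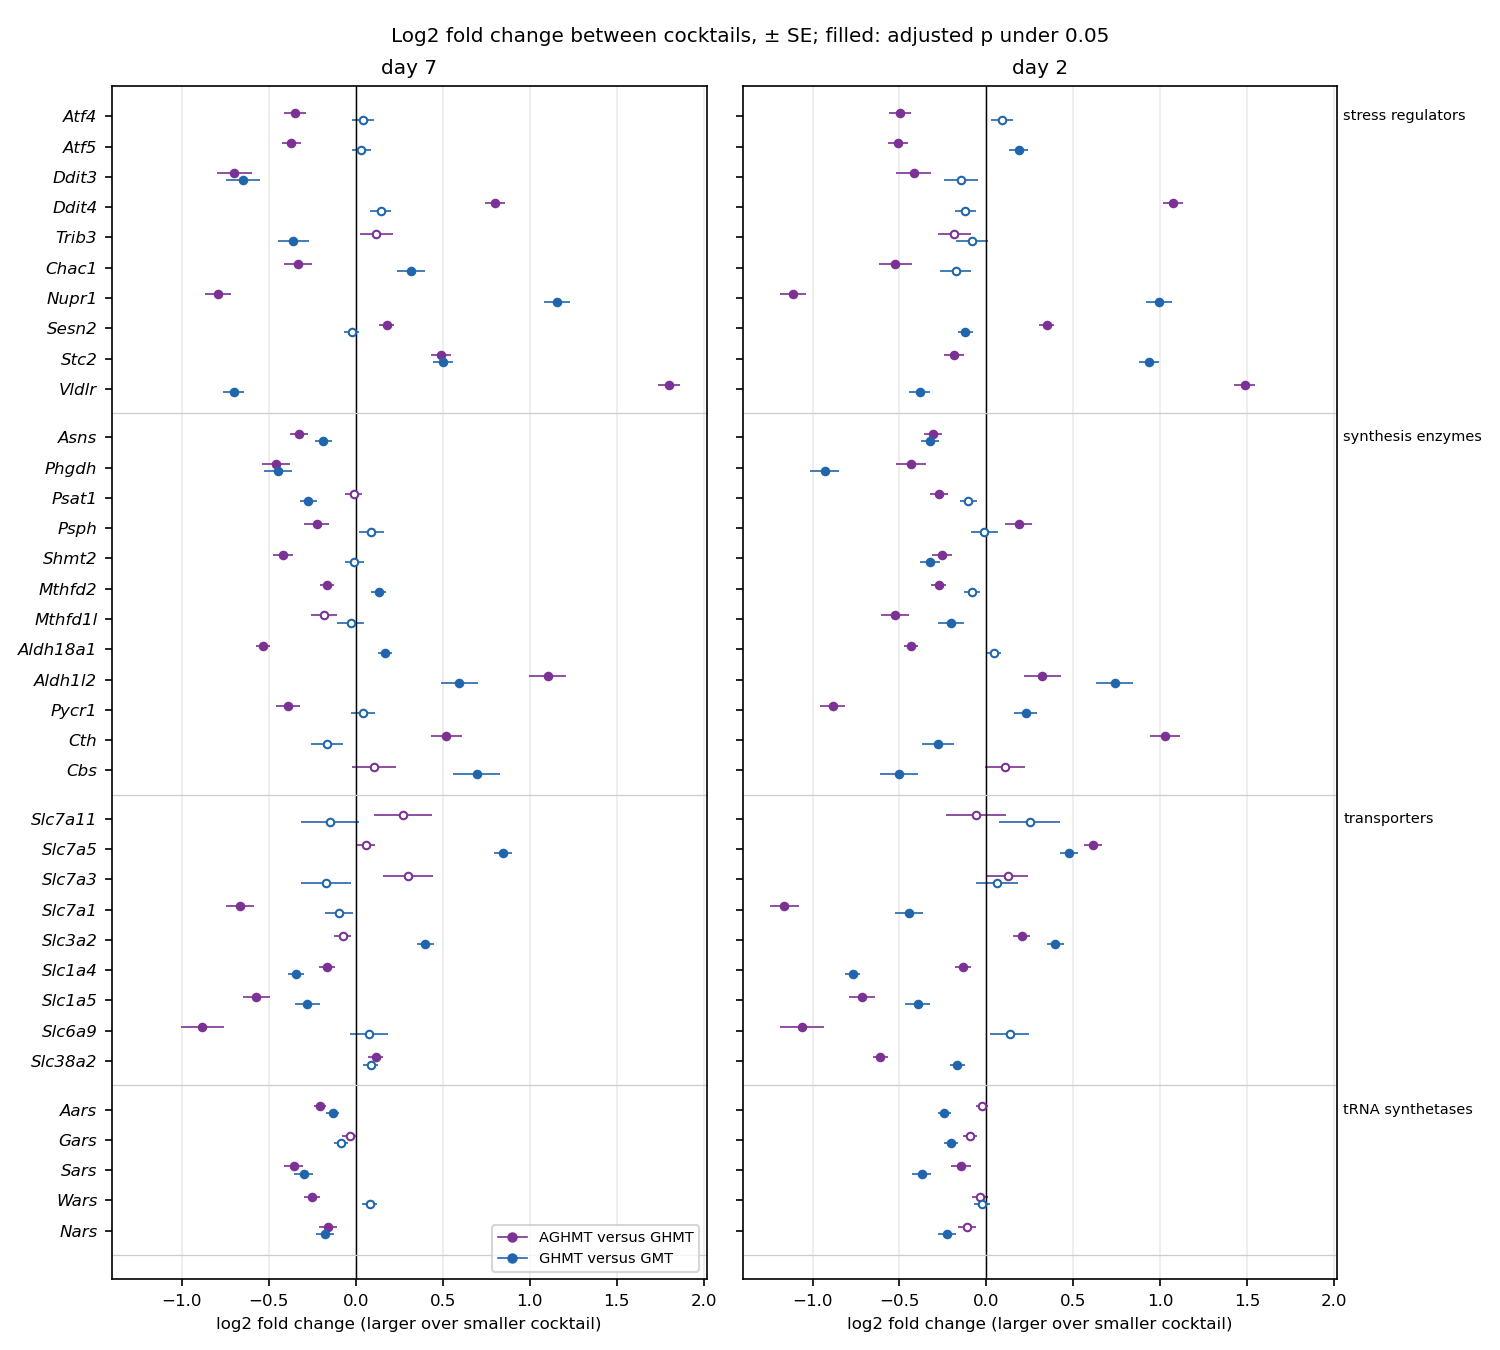
Log2 fold change of each of the 36 genes (x axis, points with SE) for AGHMT over GHMT and for GHMT over GMT, at day 7 (left) and day 2 (right), with filled points at an adjusted p under 0.05. Vldlr, Aldh1l2 and Ddit4 lie furthest right for AGHMT over GHMT at day 7, and Nupr1 lies right of 0 for GHMT over GMT and left of 0 for AGHMT over GHMT.

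The differences from mock changed between the days for most genes. Under AGHMT, the log2 fold change against mock was higher at day 7 than at day 2 for 18 of 36 genes and lower for 10 (edgeR test of the difference), or 18 and 9 without replicate 3 of day 2, where 24.8% of all genes tested had a higher and 26.1% a lower one. Under GHMT it was higher for 17 and lower for 9, where 23.3% of all genes were higher and 26% lower. With library totals GHMT gave 20 higher and 7 lower, and 5100 higher and 3674 lower of all genes. Under GMT it was higher for 14 and lower for 9, where 24.3% of all genes were higher and 25.3% lower. The synthesis enzymes and tRNA synthetases made up most of the higher ones, with 8 of 12 and 4 of 5 under AGHMT, 7 and 5 under GHMT, and 7 and 5 under GMT. Transporters were split, with 2 of 9 higher and 5 lower under AGHMT. Slc7a3 had the most negative day difference in each cocktail (-1.31 ± 0.15 under AGHMT, -1.48 ± 0.16 under GHMT and -1.25 ± 0.15 under GMT), followed under AGHMT by Slc1a5 (-0.82 ± 0.10). Slc7a1 (1.03 ± 0.12) and Slc38a2 (0.95 ± 0.062) went the other way under AGHMT.

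The level in mock, against which these differences are taken, itself changed between the days for many of the genes. In mock, 13 of 36 genes were higher and 14 lower at day 7 than at day 2, where 29.7% of all genes were higher and 25.8% lower. With library totals 7 were higher and 18 lower, where 4036 of all genes were higher and 6134 lower. Of the stress regulators 7 of 10 were higher at day 7, or 3 where counts were scaled by library totals only, and of the synthesis enzymes 8 of 12 were lower. Nupr1 (0.67 ± 0.080), Pycr1 (0.62 ± 0.059) and Slc7a3 (0.57 ± 0.085) had the highest log2 fold changes between the days in mock, and Mthfd1l (-0.90 ± 0.068) and Cth (-0.78 ± 0.075) the lowest. Within AGHMT, 17 genes were higher and 8 lower at day 7 than at day 2, or 19 and 8 without replicate 3 of day 2, where 29.5% of all genes were higher and 24.9% lower. With library totals 13 were higher and 11 lower within AGHMT, and 4223 and 5643 of all genes. Within GHMT, 15 were higher and 6 lower, where 25.6% of all genes were higher and 24.6% lower. Within GMT, 14 were higher and 10 lower, where 27.5% of all genes were higher and 24.4% lower. With library totals 10 were higher and 13 lower within GMT, and 3840 and 5580 of all genes. Nupr1 was higher at day 7 within each cocktail, by log2 1.57 ± 0.077, 1.25 ± 0.075 and 1.09 ± 0.076 in AGHMT, GHMT and GMT. Mthfd2 (0.76 ± 0.044, 0.65 ± 0.043 and 0.44 ± 0.043) and Chac1 (1.04 ± 0.092, 0.85 ± 0.086 and 0.36 ± 0.084) were higher at day 7 in the 3 cocktails as well, while Mthfd2 did not pass the threshold in mock (-0.056 ± 0.040, edgeR, adjusted p = 0.247).

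Neighbouring genes of the pathway, taken from lists outside the 36, were read in the same fit. Of 16 kinases, phosphatases and partners around eIF2α and ATF4, 9 were lower and 4 higher under AGHMT at day 7 (median log2 -0.25), and 11 were lower and 3 higher at day 2, or 12 and 4 without AGHMT replicate 3. Over all genes tested, 38.1% were lower and 38.6% higher at day 7, and 37.4% and 38% at day 2. Eif2ak3 and Eif2ak4, the kinases PERK and GCN2 that answer to endoplasmic reticulum stress and to uncharged tRNA, were lower under AGHMT at day 7 (log2 -0.79 ± 0.053 and -0.31 ± 0.075), while Eif2ak1, the heme-regulated kinase, was higher (0.45 ± 0.036) and Eif2ak2, the RNA-activated kinase PKR, was not called (0.093 ± 0.12, edgeR, adjusted p = 0.476). Eif2s1, which encodes eIF2α, was higher at day 7 (0.31 ± 0.046) and lower at day 2 (-0.27 ± 0.046). The C/EBP partners fell, Cebpb to 8.62 ± 0.316 CPM in AGHMT against 26.6 ± 1.04 CPM in mock (SD, n = 3 each, log2 -1.62 ± 0.10) and Cebpg to 49.0 ± 1.48 CPM in AGHMT against 87.1 ± 1.99 CPM in mock (log2 -0.83 ± 0.046).

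The other genes of this list divided. Ppp1r15a, the stress-induced subunit GADD34 that dephosphorylates eIF2α, was higher under AGHMT, at 75.6 ± 1.399 CPM against 37.8 ± 1.91 CPM in mock (log2 1.00 ± 0.051, edgeR, adjusted p = 3.62e-15), while its constitutive relative Ppp1r15b was lower (-0.58 ± 0.039). Atf3, a stress-induced repressor, was higher at 17.6 ± 0.451 CPM in AGHMT, 14.6 ± 1.58 CPM in GHMT and 42.9 ± 2.01 CPM in GMT, against 6.70 ± 0.497 CPM in mock at day 7. Jdp2 (log2 -1.86 ± 0.053), a repressor of the same family, Gadd45a (-2.07 ± 0.076), a growth arrest gene, Eif4ebp1 (-0.31 ± 0.066), which restrains translation, and Impact (-0.19 ± 0.037), an inhibitor of GCN2, were lower under AGHMT at day 7. Nck1, an adaptor, and Gcn1l1, the activator of GCN2, did not pass the threshold there (edgeR, adjusted p = 0.281 and 0.839).

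The unfolded protein response of the endoplasmic reticulum, which shares PERK with this pathway, was close to the shares over all genes at day 7. Of 24 genes, 10 were lower and 9 higher under AGHMT at day 7 (median -0.051), and 15 and 7 at day 2 (median -0.21), or 14 and 7 without AGHMT replicate 3. That is 41.7% lower and 37.5% higher at day 7, where 38.1% of all genes tested were lower and 38.6% higher. At day 2 it is 62.5% lower and 29.2% higher, where 37.4% of all genes tested were lower and 38% higher. Pdia4 (-0.58 ± 0.036) and Calr (-0.61 ± 0.038), a disulfide isomerase and a chaperone, were lower, and the sensor Atf6 (1.07 ± 0.071) and the oxidase Ero1l (0.71 ± 0.049) higher.

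The remaining cytosolic tRNA synthetases were mostly lower too. Of 15, 9 were lower and 3 higher under AGHMT at day 7 (median -0.35), and 14 were lower and 1 higher at day 2 (median -0.78), or 14 and 0 without AGHMT replicate 3. Those shares are 60.0% lower at day 7 and 93.3% at day 2, where 38.1% and 37.4% of all genes tested were lower. Vars (-0.76 ± 0.053), Iars (-0.73 ± 0.051), Cars (-0.67 ± 0.046) and Eprs (-0.60 ± 0.039), for valine, isoleucine, cysteine, and glutamate with proline, had the smallest adjusted p. Of 17 mitochondrial tRNA synthetases, 4 were lower and 6 higher at day 7 (median 0.071), or 23.5% and 35.3%, where 38.1% of all genes tested were lower and 38.6% higher. Wars2 (-0.61 ± 0.070) and Vars2 (-0.54 ± 0.072) were lower, and Ears2 (0.58 ± 0.072) and Fars2 (0.49 ± 0.073) higher. At day 2, 7 of the 17 were lower and 3 higher under AGHMT, with or without its replicate 3. That is 41.2% and 17.6%, where 37.4% of all genes tested were lower and 38% higher.

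Of the amino acid carriers outside the 36, more were higher than lower at day 7. Of 26 tested, 13 were higher and 10 lower under AGHMT (median 0.39). Of all genes tested 38.6% were higher, and the lower carriers, at 38.5% of the list, were close to the 38.1% of all genes. Slc1a2, a glutamate carrier best known from astrocytes, stood at 202 ± 11.98 CPM in AGHMT, 103 ± 6.57 CPM in GHMT and 105.2 ± 6.95 CPM in GMT, against 0.892 ± 0.0618 CPM in mock. Slc6a6, the taurine carrier that heart muscle uses heavily, stood at 1277 ± 22.9 CPM in AGHMT against 151 ± 8.08 CPM in mock (log2 3.08 ± 0.070). Slc43a2, a carrier of branched-chain amino acids, was higher (log2 3.17 ± 0.087), and the cationic carrier Slc7a2 was lower (-3.65 ± 0.10).

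Breakdown of branched-chain amino acids, an activity of oxidative muscle, was the list with the largest share of higher genes under AGHMT. Of 19 genes, 15 were higher and 3 lower at day 7 (median 0.55), and 15 and 2 at day 2 (median 0.81), or 15 and 3 without AGHMT replicate 3. The higher ones were 78.9% of the list at both days, where 38.6% of all genes tested were higher at day 7 and 38% at day 2. Ivd (1.15 ± 0.043), Dbt (1.09 ± 0.050) and Mut (0.94 ± 0.049), mitochondrial enzymes of the pathway, were higher, while Bcat1, the cytosolic transaminase, fell to 32.9 ± 1.63 CPM in AGHMT against 87.5 ± 2.63 CPM in mock (log2 -1.41 ± 0.060, edgeR, adjusted p = 7.13e-17). Under GHMT and GMT, 10 and 11 of the 19 were higher and 6 and 5 lower at day 7, where 36.3% and 37.1% of all genes were higher.

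The other synthesis lists were mixed, with shares of lower genes under the 38.1% of all genes tested and shares of higher genes above the 38.6% under AGHMT at day 7. Their shares were 42.1% higher and 31.6% lower for the folate list and 61.5% and 30.8% for the methionine list, while the proline to aspartate list had 33.3% lower. Of 19 further genes of the folate cycle and glycine cleavage, 8 were higher and 6 lower under AGHMT at day 7 (median 0.092), with Aldh1l1 (3.02 ± 0.10), the cytosolic counterpart of Aldh1l2, the folate carrier Slc46a1 (1.33 ± 0.065) and the dehydrogenase subunit Dld (0.95 ± 0.053) among the higher. Of 18 genes that make or convert proline, glutamine, arginine and aspartate, 9 were higher and 6 lower (median 0.26). Glul (1.89 ± 0.057), glutamine synthetase, and Got1 (2.02 ± 0.065), the cytosolic aspartate transaminase, were higher, and Ass1 (-1.30 ± 0.051), argininosuccinate synthase, was lower. Of 13 genes around methionine and cysteine, 8 were higher and 4 lower (median 0.20), with Tst (1.91 ± 0.11), Gclc (0.65 ± 0.048), which limits glutathione synthesis, and Mat2a (0.58 ± 0.033), which makes S-adenosylmethionine, higher and the cysteine dioxygenase Cdo1 (-2.43 ± 0.068) lower. Under AGHMT at day 2, the folate list had 9 lower and 8 higher (47.4% and 42.1%), or 9 and 7 without replicate 3. The proline to aspartate list had 8 lower and 9 higher (44.4% and 50%) at day 2, or 7 and 7 without replicate 3. The methionine list had 4 lower and 5 higher (30.8% and 38.5%) at day 2. Of all genes tested, 37.4% were lower and 38% higher at day 2.

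**Figure D4:**
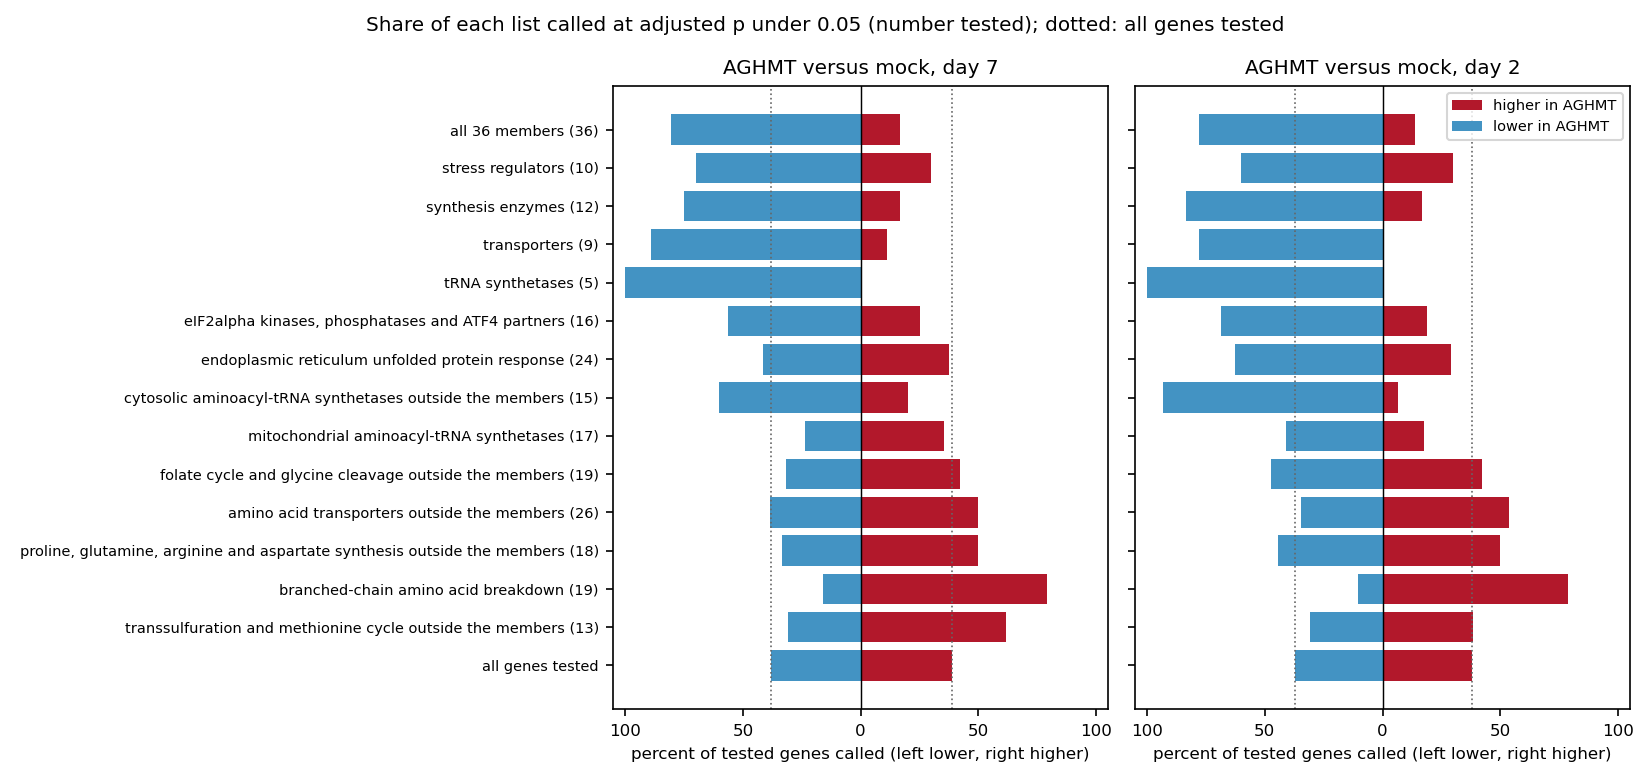
Percent of the tested genes of each list that were higher (right) or lower (left) in AGHMT than in mock at an adjusted p under 0.05, at day 7 and day 2, with the number tested in brackets and dotted lines at the percent over all genes tested. The transporters and tRNA synthetases among the 36 reach the longest lower bars at day 7, and branched-chain amino acid breakdown the longest higher bar.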

How the data were processed

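RNA extracted with TRIzol was sequenced, per the labels' protocols, and groups of 3 libraries were taken from the labels. The submitters' processing notes list DESeq2 1.6.3, featureCounts 1.4.6, HISAT2 2.0.1 and Trim Galore 0.4.1 with GRCm38 (mm10) as build, and the sources used here give neither annotation release nor strand setting. The deposited table holds raw whole-number counts per gene for 47967 genes, as the authors counted them, and a deposited log-scale table was not used here. Replicates never agreed within sampling noise (chi-square over degrees of freedom at least 1.49), so none was merged.

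Genes passing edgeR's filterByExpr (17576 genes) were scaled with TMM and fitted with edgeR 4.0.16 in R 4.3.3 (quasi-likelihood F test, two-sided), with 1 mean per group for the 24 libraries, 16 residual degrees of freedom and a common biological coefficient of variation of 5.55%. Genes at a Benjamini-Hochberg adjusted p under 0.05 over all genes tested were called, in 17 comparisons. The code was checked on simulated counts. A log2 fold change has its first-named group on top, and a day difference is the log2 fold change against mock at day 7 minus that at day 2.

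The 36 genes and all other lists were chosen with earlier results of these data known. All 36 genes are named, with every library's value. From the other lists, the 4 genes with the smallest adjusted p in AGHMT against mock at day 7 are named, apart from some that are not reported here, and every gene of the eIF2α list (its symbol Gcn1 had no row of its own). Coordinates, exon lengths and exonic overlaps came from GENCODE M21 on GRCm38, and promoter windows from RefSeq on GRCm38.p6. The alternatives were each library left out in turn, a fit of the compared libraries alone, the replicate number as a block, library totals or RLE size factors for scaling, no filter on low counts, and DESeq2 1.42.0.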

Additional observations from a re-analysis of the deposited data

Results flagged for a closer look

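The difference from mock itself differed between day 7 and day 2 for 28 of the 36 genes under AGHMT, 26 under GHMT and 23 under GMT, by edgeR's test of the difference at an adjusted p under 0.05. Under AGHMT it was 27 genes without replicate 3 of day 2. Over all genes tested, 24.8% had a higher and 26.1% a lower log2 fold change at day 7 than at day 2 under AGHMT, 23.3% and 26% under GHMT, and 24.3% and 25.3% under GMT. The 3 cocktails share the mock libraries of each day, so these counts are not independent of each other. Slc38a2, the carrier SNAT2, was above mock at day 7 and below it at day 2 under AGHMT, a difference of 0.95 on the log2 scale. Psph, the last enzyme of serine synthesis, was above mock at day 7 and below it at day 2 under GHMT, a difference of 0.8 on the log2 scale, although its call at day 7 was lost without any of 4 single libraries. The labels give no batch, so that the day of harvest and any batch that followed it cannot be told apart.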

How the results depend on the processing

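Each of the 36 genes was tested again in the 17 comparisons under 30 other settings, which gave 18360 repeats. Of these, 17984 had the same direction and side of the threshold, 241 lost the call, 135 gained one and 0 were reversed. Against mock, 20 of 6480 repeats lost the call and 9 gained one, in Aldh1l2, Slc38a2, Vldlr, Ddit3, Psph, Sars and Wars. With library totals in place of TMM factors, 3 of the 36 genes were higher in GHMT than in mock at day 2 (5 as reported), 7 were higher in mock at day 7 than at day 2 (13 as reported), and 5770 of all genes were lower in GHMT than in GMT at day 2 (3817 as reported). That scaling moved the median log2 fold change of all genes by -0.12 in GHMT against GMT at day 2 and by 0.10 in the day difference of GHMT, and it left 3 of 5 tRNA synthetases lower in GMT than in mock at day 7 (5 as reported). Counts of the 36 genes stayed within 1.5 times their value under every other setting, single libraries left out included. Depth limits the genes at a few CPM the most, such as Cbs and Slc7a11.

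With the replicate number as a replicate block, 606 repeats of a gene in a comparison had the same direction and side of the threshold, 2 gained the call and 4 lost it, and under AGHMT against mock at day 7 the counts were again 29 lower and 6 higher. The lowest correlation of same-numbered deviations was under 0.1 in every comparison, which by itself cannot show that the numbers do not pair the samples. The highest were those of AGHMT and GHMT at day 2, at 0.072 to 0.274 over the 3 pairs. Their mean was 0.147, against -0.073 for pairs of different numbers. Replicate 3 of GHMT at day 2 also stood apart, with chi-square over degrees of freedom of 7.69 and 6.93 against 2.26 between replicates 1 and 2. A factor shared by the replicates 3 of that day was not tested. By the same measure, replicate 2 of GHMT at day 7 stood further from its group than replicate 3 of GHMT at day 2. It had 10.5 and 9.82, against 2.29 between replicates 1 and 3 of GHMT at day 7. With single libraries left out, GHMT against mock at day 7 gave 27 to 28 lower and 4 to 6 higher genes of the followed set.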
